A study of Mus musculus with 4 samples.

Results

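The genes described here are Tlr8, Padi4, Pirb, Ceacam1 and Adam17, which encode an RNA sensor, a histone-citrullinating enzyme, 2 inhibitory receptors and a sheddase. All were grouped as genes of myeloid cells, and which cells of the bone expressed them was not tested. They are 5 of the 1175 genes in a table of bone RNA from exercised and sedentary mice, and each was found by its symbol. All 5 had a mean of at least 10 counts over the 4 libraries. Tlr8 reached it only through the exercise libraries, with 3 and 9 counts in the sedentary ones. The set was chosen by role and from earlier results on the same 4 libraries, and every gene in the table had a higher mean count in exercise. The values below therefore describe these libraries, and no p-value is given for a single gene or for the set. With 2 against 2 libraries an exact permutation test cannot give a p below 0.333.

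Myeloid cells carry sensors that recognize microbial nucleic acids inside endosomes and receptors that set the threshold at which the cells respond. TLR7, TLR8 and TLR9 sit in endosomal membranes, recognize RNA or DNA and signal through the adaptor MyD88. Neutrophils, which mature in bone marrow, can expel decondensed chromatin as extracellular traps, a process that uses citrullination of histones. Inhibitory receptors of these cells carry tyrosine motifs in their tails that recruit phosphatases, and sheddases cut receptors and cytokines from the cell surface.

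RNA came from bones of wild-type mice aged 13 weeks, with no Cre line. The exercised mice had been trained since the age of 8 weeks, for 5 weeks, by treadmill running of medium intensity, and sedentary mice were not trained. Marrow was flushed out before the bones were ground, and bone can keep marrow cells after flushing. Each group had 2 libraries, which the labels do not tie to separate animals. Over all listed genes, counts added up to 594856 and 516963 in sedentary replicates 1 and 2 and to 1160883 and 2680636 in exercise replicates 1 and 2. Library totals are unknown, so levels are given as shares, meaning counts per 1000000 counts of the 1175 listed genes. A gene can have more counts and a lower share. In RNA from whole bone, fewer cells of a type and less RNA per cell cannot be told apart.

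The shares of Tlr8, Ceacam1 and Adam17 were higher in both exercise libraries than in both sedentary ones, that of Pirb was lower in both, and that of Padi4 overlapped. These 3 of 5 genes with higher shares compare with 36% of all listed genes, and the 1 gene with lower shares with 16.1%. Both exercise counts exceeded both sedentary counts in all 5 genes, as in 99.7% of the table. The median log2 share ratio of the 5 genes, exercise over sedentary, was 0.72, against 0.14 over all 1175 genes. Tlr8, Ceacam1 and Adam17 passed the thresholds of the study's methods (unadjusted p under 0.05, absolute log2 ratio over 0.25) in an edgeR quasi-likelihood fit of the whole table, all as higher shares, against 11.3% of listed genes that passed as higher. Of the 5, 3 had an unadjusted p under 0.05 in edgeR and 0 an adjusted p under 0.05, against 0.34% of the table. With the DESeq2 Wald test 2 of the 5 had an adjusted p under 0.05, against 3.06% of the table, and with limma-voom 0 did, against 0%. The thresholds of the study's methods were passed by 4 of the 5 with the DESeq2 Wald test and by 1 with limma-voom, against 13.3% and 5.79% of the table in either direction. The listing used the same contrast, so nothing is read from these counts.

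**Figure D1:**
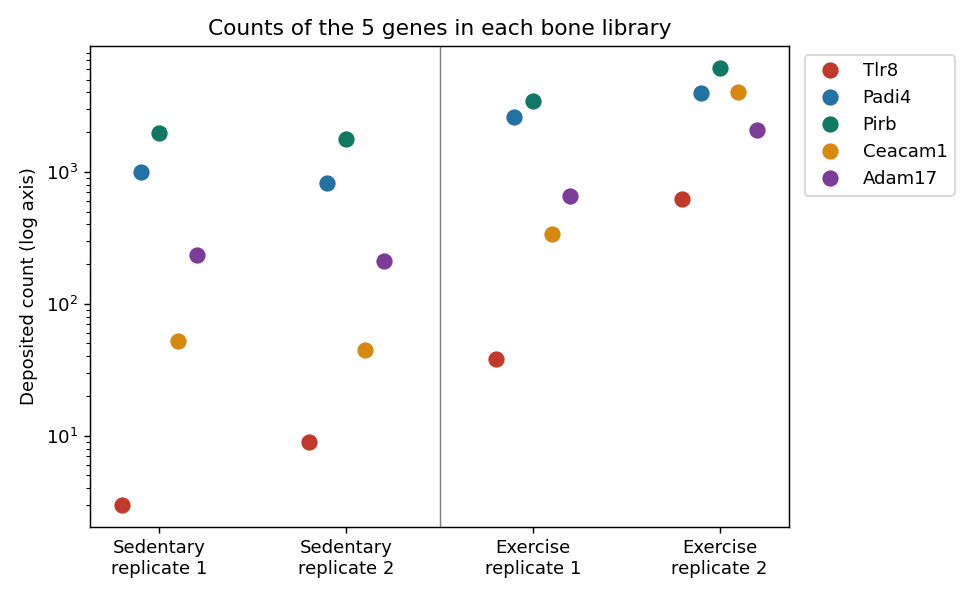
Deposited counts of Tlr8, Padi4, Pirb, Ceacam1 and Adam17 on a log axis, with 1 point per gene in each of the 4 bone libraries. Counts of all 5 genes were higher in both exercise libraries, and Tlr8 ran from 3 in sedentary replicate 1 to 623 in exercise replicate 2.

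The promoters of Tlr8 and Ceacam1, the genes with the largest ratios, and of Pirb, the gene with a lower share, are shown as 300 bases from 250 before to 50 after the RefSeq start (GRCm38.p6, minus strand), read 5′ to 3′ on the gene's strand. Capitals mark matches, on either strand, to the PU.1 core GAGGAA, the C/EBP site TTGCNNAA, the interferon-stimulated element GAAANNGAA and the AP-1 site TGANTCA. PU.1 and C/EBP factors are regulators of myeloid genes. Positions are chrX:167264280-167264579 for Tlr8, chr7:25477576-25477875 for Ceacam1 and chr7:3720333-3720632 for Pirb.
Tlr8: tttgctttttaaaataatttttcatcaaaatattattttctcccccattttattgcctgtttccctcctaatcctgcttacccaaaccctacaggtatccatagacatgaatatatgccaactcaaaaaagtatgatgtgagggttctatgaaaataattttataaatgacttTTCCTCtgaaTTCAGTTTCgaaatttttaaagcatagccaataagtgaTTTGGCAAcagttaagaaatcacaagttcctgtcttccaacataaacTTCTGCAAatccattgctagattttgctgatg
Ceacam1: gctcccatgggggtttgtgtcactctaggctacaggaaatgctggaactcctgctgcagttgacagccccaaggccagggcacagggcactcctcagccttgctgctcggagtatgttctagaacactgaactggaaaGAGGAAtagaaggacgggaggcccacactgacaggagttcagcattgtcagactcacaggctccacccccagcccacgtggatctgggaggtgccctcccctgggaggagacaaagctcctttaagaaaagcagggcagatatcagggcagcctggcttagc
Pirb: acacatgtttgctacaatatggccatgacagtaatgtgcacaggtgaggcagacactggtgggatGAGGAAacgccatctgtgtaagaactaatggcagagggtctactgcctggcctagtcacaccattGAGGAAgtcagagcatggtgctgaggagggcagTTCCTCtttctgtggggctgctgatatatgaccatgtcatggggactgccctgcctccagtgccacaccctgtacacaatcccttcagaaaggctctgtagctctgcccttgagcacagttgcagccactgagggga

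The PU.1 core was found in 3 of the 5 promoters, those of Tlr8, Ceacam1 and Pirb, against 28.3% of 32851 promoters of the same length. The Tlr8 window had 1 match, at position -77, counted to its first base from the start site at 1, which overlapped none of the others. It also had C/EBP matches at -29 and 19, found in 10.8% of all promoters, and an interferon-stimulated element match at -67 (8.56%), all on the opposite strand. The Ceacam1 window had 1 PU.1 match at -112, and the Pirb window had 3, at -185, -120 and -87. Padi4 had an AP-1 match at -54 (7.81% of all promoters), and Adam17 had no match to any of these letters. GC content was 32.3% for Tlr8, below the lower quartile of all promoters (45.7%), and 66.3% for Padi4 and 70.0% for Adam17, above the upper quartile (61.7%). Pirb at 53.3% and Ceacam1 at 57.3% lay between the quartiles. The PU.1 core was present both in the genes with higher shares, Tlr8 and Ceacam1, and in Pirb with a lower one. These matches are letters in a window and no measure of binding.

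Tlr8, an endosomal sensor of single-stranded RNA, was the least abundant of the 5 genes and had the largest share ratio of them. It lies on chromosome X (167242696 to 167264329, minus strand, mm10) beside Tlr7, which is not in the table, and no annotated gene overlaps it. Its counts were 3 and 9 in sedentary replicates 1 and 2 and 38 and 623 in exercise replicates 1 and 2. The sedentary libraries held almost no Tlr8 reads, and the high value came from 1 exercise library.

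The share of Tlr8 was 5.04 and 17.4 in the sedentary libraries and 32.7 and 232 in the exercise libraries. The groups did not overlap, but exercise replicate 2 stood 7.10 times above exercise replicate 1. The log2 share ratio was 3.58 ± 1.16 (SE, n = 2 per group). From pooled counts the share was 15.9 times higher in exercise, with an exact 95% counting interval of 9.07 to 31.0. For exercise replicate 1 alone that ratio was 3.03 (1.55 to 6.38), and for exercise replicate 2 alone 21.5 (12.2 to 41.9). These intervals do not overlap, and they cover counting error only. The sedentary libraries differed by 3.45 times, with an interval of 0.861 to 19.8 that includes no difference. The log2 value was 1.58 when exercise replicate 2 was left out. Without sedentary replicate 1 it was 2.93 and the thresholds were not passed, and without sedentary replicate 2 it was 4.70. With limma-voom, Tlr8 did not pass either.

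Padi4, which converts arginine to citrulline in histones and is needed for neutrophil extracellular traps, had no common direction of share in the 2 exercise libraries. It lies on chromosome 4 (140745865 to 140774236, minus strand) between Padi6 and Padi3, neither of which is in the table. Counts were 991 and 823 in the sedentary libraries and 2600 and 3987 in the exercise libraries. Its shares were 1666 and 1592 in sedentary bone, against 2240 in exercise replicate 1 and 1487 in exercise replicate 2. The exercise libraries fell on either side of the sedentary pair. The log2 share ratio was 0.19 ± 0.22 (SE, n = 2 per group). Leaving out exercise replicate 1 gave -0.13 and leaving out exercise replicate 2 gave 0.46, so its direction depended on which exercise library was used, and it passed the thresholds only in the latter fit. With DESeq2 size factors, which shift the median of all listed genes from 0.14 to 0.04, the ratio was 0.10.

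Pirb, the paired immunoglobulin-like receptor B, binds MHC class I in mice and restrains myeloid and B cell activation. It was the most abundant of the 5 genes and the only one with a lower share in exercise. It lies on chromosome 7 (3711409 to 3720391, minus strand). Counts were 1963 and 1764 in the sedentary libraries and 3464 and 6138 in the exercise libraries. Shares were 3299 and 3412 in sedentary bone and 2984 and 2290 in exercised bone, so that both exercise libraries lay below both sedentary ones, exercise replicate 2 the more so. The log2 share ratio was -0.35 ± 0.18 (SE, n = 2 per group), between -0.17 without exercise replicate 2 and -0.55 without exercise replicate 1. Pirb did not pass the thresholds in edgeR with all 4 libraries, and it did with the DESeq2 Wald test and without exercise replicate 1. Its mean count was 2.58 times higher in exercise, close to the lowest such ratio in the table, 2.48, and its log2 share ratio ranked 1170 of 1175 from the highest.

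Pirb shares part of its sequence with a cluster of related activating receptor genes. Of the 75-base windows in its GENCODE transcripts, 26.0% also occur in transcripts of other genes, 14.0% in Gm14548, 13.2% in Pira2, 8.40% in Lilra6 and 6.89% in its neighbour Gm15448. None of the 4 deposited values of Pirb is a whole number, and how reads were divided among these genes is not given. Of the relatives, Gm14548, Lilra6 and Gm15448 were in the table. Gm14548 had shares of 41.8 and 70.5 in sedentary bone and 164 and 270 in exercised bone, with a ratio of 1.97 ± 0.44 (SE) on the log2 scale. Lilra6 had a log2 share ratio of 0.03 ± 0.21, and Gm15448 had 4.37 and 0 counts in sedentary bone against 26.5 and 110 in exercised bone. The relatives therefore did not follow the lower share of Pirb. The part of read assignment in these values was not tested.

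Ceacam1, an adhesion molecule with inhibitory motifs in its long cytoplasmic form, was the second gene with a large share ratio. It lies on chromosome 7 (25461707 to 25477603, minus strand) next to Ceacam2, and an antisense gene, 4732471J01Rik, overlaps it on the opposite strand without sharing exon bases. Counts were 52.4 and 44.8 in the sedentary libraries and 339 and 4028 in the exercise libraries. The sedentary libraries were nearly equal and exercise replicate 2 held most of the reads.

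The share of Ceacam1 was 88.1 and 86.6 in sedentary bone and 292 and 1502 in exercised bone, with no overlap of the groups. Exercise replicate 2 was 5.14 times above exercise replicate 1, while sedentary replicate 2 was 0.982 times sedentary replicate 1. The log2 share ratio was 3.37 ± 0.81 (SE, n = 2 per group), 4.10 without exercise replicate 1 and 1.74 without exercise replicate 2. From pooled counts the share was 13.0 times higher in exercise (95% counting interval 10.7 to 16.1). Against the pooled sedentary libraries, exercise replicate 1 alone was 3.35 times higher (2.66 to 4.24) and exercise replicate 2 alone 17.2 times higher (14.1 to 21.3). Ceacam1 passed the thresholds whichever library was left out and did not pass with limma-voom. Of its 75-base windows 24.2% also occur in Ceacam2, which is not in the table, and all 4 deposited values of Ceacam1 carry fractions, so its reads cannot be told apart fully from those of Ceacam2 here.

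Adam17, the protease that releases tumour necrosis factor, L-selectin and other proteins from the cell surface, had a moderately higher share in both exercise libraries. It lies on chromosome 12 (21323509 to 21373632, minus strand) and shares 311 exon bases with Iah1 on the opposite strand. Iah1 is not in the table, and whether counting used strand is not given. Counts were 236 and 213 in the sedentary libraries and 655 and 2056 in the exercise libraries. Shares were 396 and 411 in sedentary bone and 564 and 767 in exercised bone, and exercise replicate 2 was 1.36 times above exercise replicate 1. The log2 share ratio was 0.72 ± 0.20 (SE, n = 2 per group), between 0.48 without exercise replicate 2 and 0.92 without exercise replicate 1. Adam17 passed the thresholds with limma-voom and with either exercise library left out, and did not pass when either sedentary library was left out (0.69 and 0.75 without sedentary replicates 1 and 2). Only 0.273% of its 75-base windows occur in another gene.

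**Figure D2:**
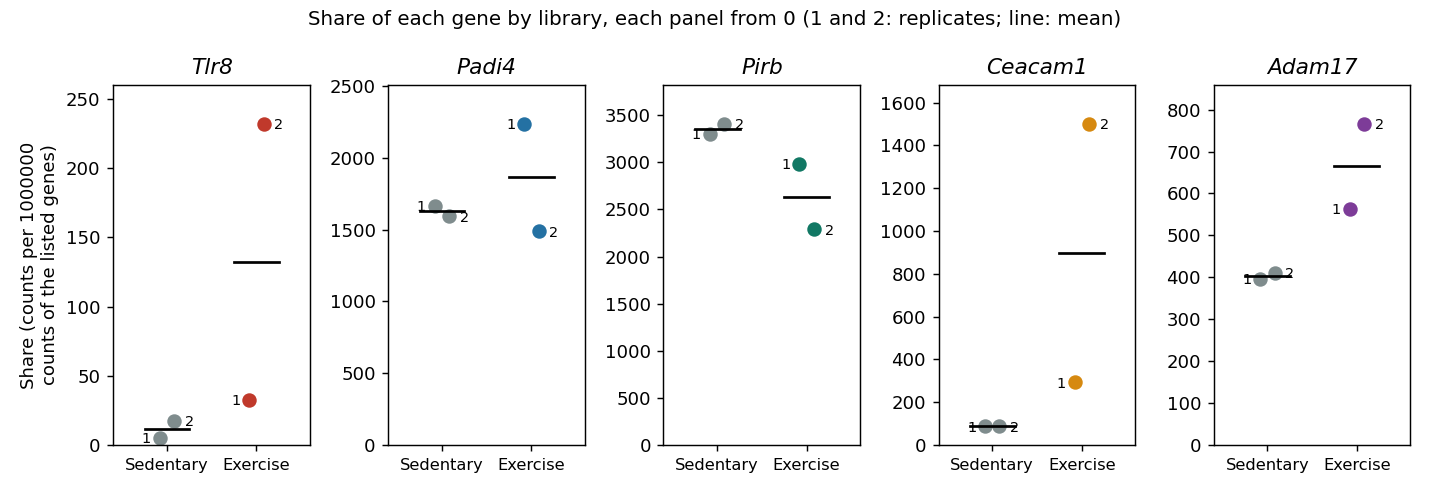
Share of each gene, in counts per 1000000 counts of the listed genes, with 1 panel per gene from 0, points for replicates 1 and 2 and a line at the mean of each group. Tlr8 and Ceacam1 were far higher in exercise replicate 2 (232 and 1502) than in exercise replicate 1 (32.7 and 292), while the exercise libraries of Padi4 lay on both sides of the sedentary pair.

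Levels between genes were compared as share per kilobase of annotated exon, in counts per 1000000 per kilobase. In sedentary bone Pirb stood at 751 ± 17.7 (SD, n = 2) and Padi4 at 337 ± 10.8, well above Adam17 at 56.4 ± 1.47, Ceacam1 at 15.0 ± 0.190 and Tlr8 at 3.13 ± 2.44. Each step of that order was larger than the spread of the neighbouring genes. In exercised bone Pirb stood at 590 ± 110, Padi4 at 385 ± 110, Ceacam1 at 155 ± 147, Adam17 at 93.0 ± 20.1 and Tlr8 at 37.0 ± 39.4. Ceacam1 and Adam17 could not be ordered there, since Ceacam1 was at 50.3 and 259 and Adam17 at 78.8 and 107 in exercise replicates 1 and 2. Division by exon length assumes even coverage of transcripts, which was not tested.

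The 2 exercise libraries differed most in the genes with the largest ratios. The ratio of exercise replicate 2 to replicate 1 in share ranked 31 from the top among 1175 genes for Tlr8 and 50 for Ceacam1, while Adam17 ranked 367, Pirb 1001 and Padi4 1091. Tlr8 and Ceacam1 were thus high, and Padi4 and Pirb low, in the same library. Among 1005 genes averaging at least 100 counts, log2 ratios within the exercise pair had an SD of 0.70, against 0.28 within the sedentary pair. In the sedentary pair, the log2 ratios of Padi4, Pirb, Ceacam1 and Adam17 lay between -0.07 and 0.05, and that of Tlr8, with 12 counts in all, was 1.64.

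**Figure D3:**
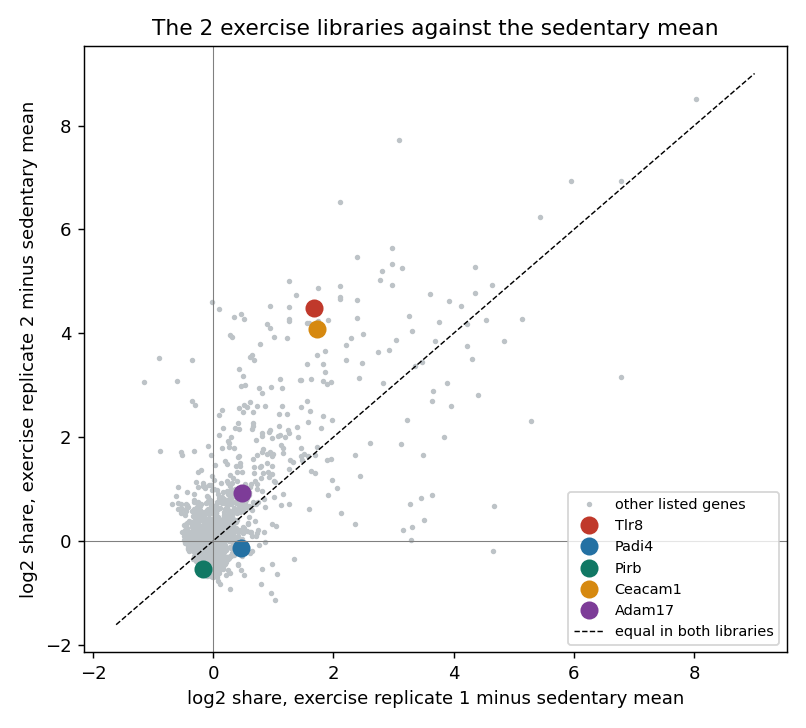
Log2 share in exercise replicate 2 (vertical) against exercise replicate 1 (horizontal), each minus the sedentary mean and with 0.5 counts added, for all 1175 listed genes, with the 5 genes in colour and a dashed line of equality. Tlr8 and Ceacam1 lie together well above the line, Adam17 slightly above it, and Padi4 and Pirb below it.

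Log2 shares of Tlr8 and Ceacam1, each centred on its mean, had a root mean square difference of 0.62 over the 4 libraries. This difference was smaller between Padi4 and Pirb (0.28), Padi4 and Adam17 (0.46) and Pirb and Adam17 (0.61). Pirb and Adam17 had shares that went in opposite directions, so a small difference does not mean a common direction. Between Tlr8 or Ceacam1 and Padi4, Pirb or Adam17 the difference ran from 1.30 to 2.13. Among the other genes averaging at least 100 counts, the nearest to Tlr8 were Chtf8 (0.53), Pdpr (0.58) and 9930111J21Rik1 (0.68). The nearest to Ceacam1 were Vcl, which encodes the adhesion protein vinculin (0.35), Chtf8 (0.41) and Pdpr (0.42). Counts of Chtf8 were 26.2 and 40.2 in sedentary and 320 and 2188 in exercised bone, again highest in exercise replicate 2. Pdpr had 5 and 6 counts against 21 and 400, and 9930111J21Rik1 7.10 and 9.14 against 38.4 and 357. Sedentary counts of Vcl were 83.6 and 76.3. Chtf8, Pdpr, 9930111J21Rik1 and Vcl thus reached a mean of 100 counts only through the exercise libraries. Nothing is therefore read from their likeness to Tlr8 and Ceacam1. Padi4 was closest to Man2b1, a lysosomal mannosidase gene (0.02), Zfp36l2, which encodes an RNA-binding protein (0.04), and the noncoding RNA Malat1 (0.04). Pirb was closest to Nadk, which encodes NAD kinase (0.02), to Zmpste24, the prelamin A protease gene (0.03), and to Map4k2, a kinase gene (0.04). Adam17 was closest to F5, which encodes coagulation factor V (0.03), and to the zinc finger genes Zfp335 (0.04) and Zfp142 (0.05). All distances are over 4 libraries and describe likeness only.

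Among other genes that sense microbes, those with few counts had the larger ratios. Of 47 further genes for nucleic acid and pattern sensors, 7 were in the table, and 6 of them had a higher and 1 a lower share in exercise, against 753 of 1175 listed genes with a higher share (64.1%). Both exercise shares lay above both sedentary ones in 3 of the 7, against 36% of all listed genes. Of the 7, 1, Tlr9, passed the thresholds, against 11.3% of listed genes that passed as higher. Named after their values were seen, these 3 were Tlr9, an endosomal sensor of DNA, and the inflammasome sensors Nlrp1a and Nlrp1b. Counts of Tlr9 were 6 and 13 in sedentary and 57 and 293 in exercised bone, and its shares were 10.1 and 25.1 against 49.1 and 109. Nlrp1a had 4 and 6 counts against 24 and 107, and Nlrp1b 5 and 2 counts against 27 and 95. Like Tlr8, these 3 genes had low counts in the sedentary libraries and their highest share in exercise replicate 2. Their log2 share ratios were 2.18, 1.73 and 2.23. All 3 had means under 100 counts, and the median ratio of all such listed genes was 2.44.

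The more abundant sensors did not separate the groups. The inflammasome gene Nlrp3 had a log2 share ratio of 0.02 ± 0.28 (SE). Naip2, Naip5 and Naip6, whose products detect bacterial flagellin or secretion system proteins in mice, had ratios of -0.04 ± 0.17, 0.02 ± 0.21 and 0.56 ± 0.47. Shares of Naip6 were 146 and 105 in sedentary and 113 and 256 in exercised bone, so exercise replicate 2 alone stood above both sedentary libraries. The Naip genes are close relatives and their deposited values carry fractions, so reads may be split among them. Of 45 signalling genes downstream of such sensors 1 was in the table, the adaptor gene Tirap, with shares of 163 and 164 in sedentary and 182 and 296 in exercised bone and a log2 share ratio of 0.55 ± 0.31.

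Mean count went with the direction of share over the whole table. Both exercise shares lay above both sedentary ones in 145 of 170 genes with a mean under 100 counts (85.3%), in 214 of 655 genes with 100 to 1000 counts (32.7%) and in 64 of 350 genes with 1000 counts or more (18.3%). Tlr8, with a mean of 168 counts, had the log2 share ratio ranked 10 of the 655 genes of its class. Ceacam1, with a mean of 1116 counts, ranked 2 of 350, and Adam17 ranked 96 of 655, Padi4 79 of 350 and Pirb 345 of 350. The classes use means over all 4 libraries, so exercise counts placed Tlr8 and Ceacam1 in their classes. In sedentary replicates 1 and 2, Tlr8 had 3 and 9 counts and Ceacam1 52.4 and 44.8. Nothing is therefore read from the ranks of these genes. The part of count level in these ratios was not tested.

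Neutrophil genes other than Padi4 had log2 share ratios between -0.37 and 0.25. Of 48 such genes 7 were in the table, 2 with a higher and 5 with a lower share, against 64.1% of all listed genes with a higher share. Their median log2 share ratio was -0.17, against 0.14 over all listed genes and -0.10 over the 350 listed genes with 1000 counts or more. None of the 7 passed the thresholds, against 11.3% of listed genes that passed as higher. Itgb2, which encodes the integrin chain CD18, had a ratio of -0.17 ± 0.22 (SE), Itgb2l of -0.31 ± 0.25 and Mxd1, a MYC antagonist of maturing granulocytes, of -0.37 ± 0.22. Csf3r, the receptor for the granulocyte growth factor G-CSF, had shares of 3770 and 3742 in sedentary and 4738 and 4181 in exercised bone, a ratio of 0.25 ± 0.14, without overlap. The summed share of the 7 genes was 22175 and 22556 in sedentary bone and 23761 and 17401 in exercise replicates 1 and 2. It was lowest in exercise replicate 2, where the shares of Tlr8 and Ceacam1 were highest and those of Padi4 and Pirb lowest. Granule genes such as Mpo, Elane and S100a8 were not in the table and are not analysed here. Of 28 genes of the neutrophil oxidase and extracellular traps besides Padi4, 2 were in the table, Dock2 (-0.17 ± 0.14) and Pik3cg (-0.15 ± 0.14). Both had lower shares in both exercise libraries, as had 16.1% of all listed genes.

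Among other receptor and kinase genes listed with Pirb and Ceacam1 by role, log2 share ratios lay between -0.27 and 0.43. Of 52 further genes of inhibitory receptors and their signalling 9 were in the table, 3 with a higher and 6 with a lower share. Over all listed genes 64.1% had a higher share. None of the 9 passed the thresholds, against 11.3% of listed genes that passed as higher. The median log2 share ratio of the 9 was -0.08. The inhibitory receptor gene Lilrb4a had a ratio of -0.01 ± 0.14 (SE), Cd300lf of 0.01 ± 0.23, and the kinase genes Syk and Fgr of -0.19 ± 0.14 and -0.22 ± 0.25. All 9 lay below the 3.37 of Ceacam1, as did most of the table, in which Ceacam1 ranked 65 of 1175. Of 44 further sheddases, regulators and substrates, 3 were in the table. Adam8, a metalloprotease gene of leukocytes, had a ratio of 0.29 ± 0.16, and Timp3, which encodes an inhibitor of ADAM17, of 0.54 ± 0.22. Both had higher shares in both exercise libraries, as did Adam17 and 36% of all listed genes. App, the amyloid precursor gene, whose product is shed, had a ratio of -0.25 ± 0.13. Of these 3 genes 0 passed the thresholds, against 11.3% of listed genes that passed as higher.

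**Figure D4:**
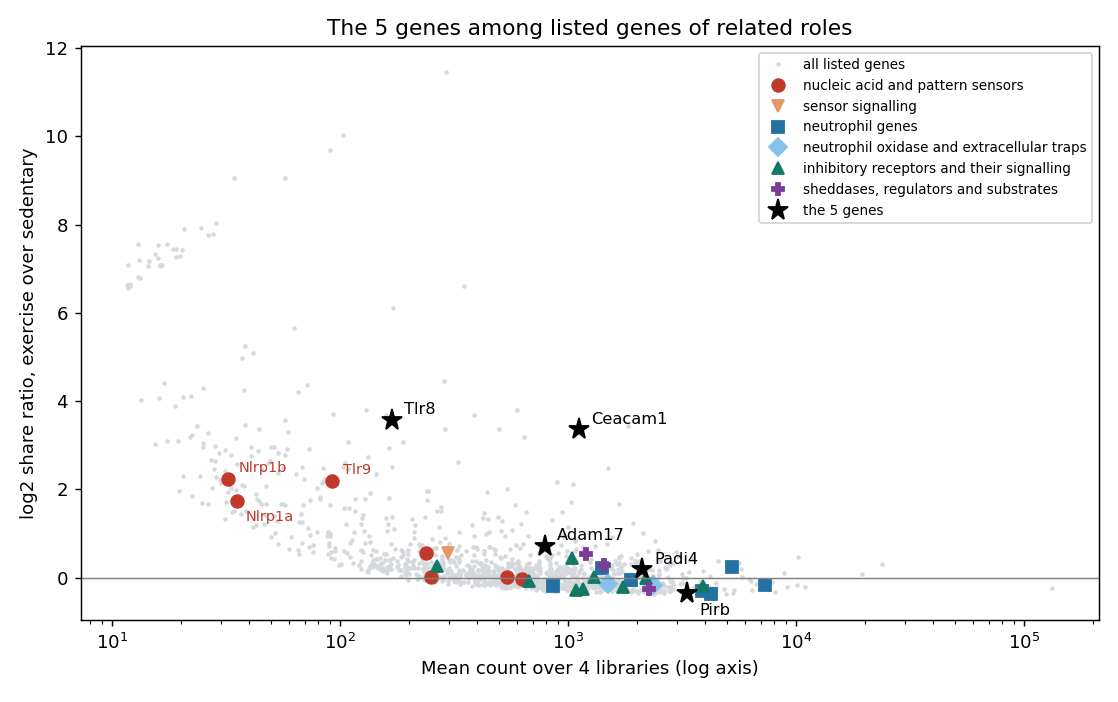
Log2 share ratio, exercise over sedentary, against mean count over the 4 libraries (log axis) for all 1175 listed genes, with listed genes of 6 related roles in colour and the 5 genes as stars. Tlr9, Nlrp1a and Nlrp1b lie at low counts with ratios of 1.73 to 2.23, the neutrophil genes lie between -0.37 and 0.25, and Ceacam1 lies at a mean of 1116 counts with a ratio of 3.37.

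Markers of other cells in bone were sparse in the table. Of 18 monocyte and macrophage, 13 dendritic and 14 T and NK cell markers 0 were listed. The myeloid cells that could carry Tlr8 could therefore not be followed by these chosen markers. Of 18 osteoblast and osteocyte markers 1, Sost, was listed (log2 share ratio 0.09 ± 0.15, SE), and the labelled tissue could be checked no further. The 6 of 16 megakaryocyte and platelet markers listed had summed shares of 6779 and 6557 in sedentary and 7620 and 7354 in exercised bone. These markers went both ways. Log2 share ratios were 2.13 for Tubb1, 0.93 for Gp1ba, 0.75 for F5, 0.04 for Nbeal2, -0.23 for Vwf and -0.32 for Alox12. The 4 of 19 B lymphocyte markers listed had summed shares of 22074 and 22288 in sedentary and 42592 and 11405 in exercised bone, a gap between the exercise libraries opposite to that of Tlr8 and Ceacam1. The gap lay in Ighm, the immunoglobulin mu heavy chain gene, with shares of 41148 and 9160 in exercise replicates 1 and 2. The other listed markers Pax5 (620 and 789), Cd22 (489 and 567) and Rag1 (334 and 889) were higher in exercise replicate 2, as Tlr8 and Ceacam1 were. The 3 of 15 erythroid markers listed summed to 10949 and 11109 against 9842 and 10767, and the 1 of 13 osteoclast markers, Clcn7, to 424 and 412 against 409 and 415. Erythroid markers also went both ways, with log2 share ratios of 0.43 for Ank1, -0.24 for Epb42 and -0.28 for Sptb. The part of cell composition in the values of the 5 genes was not tested.

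**Figure D5:**
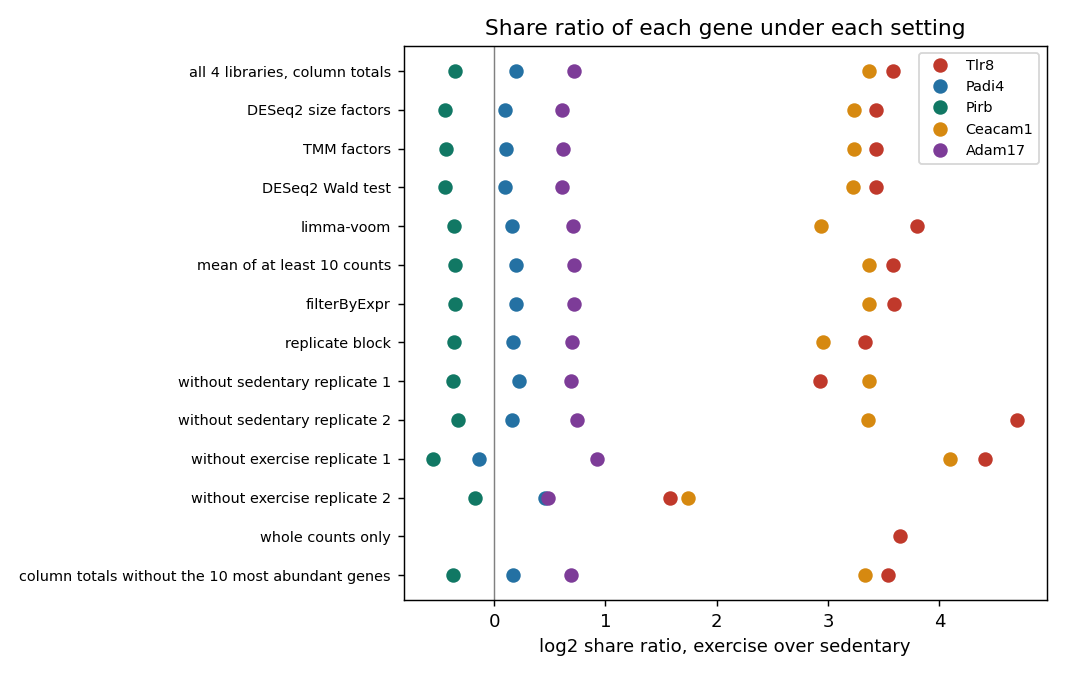
Log2 share ratio, exercise over sedentary, of each gene with all 4 libraries and under each alternative setting. Tlr8 and Ceacam1 kept a ratio above 1.5 and Pirb one below 0 in every setting that gave a value, while Padi4 turned to -0.13 without exercise replicate 1.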

How the data were processed

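RNA of flushed bone was sequenced from 4 libraries, 2 per group, made by a modified Smart-seq2 method with molecular barcodes. Per the study's bulk RNA-seq methods and processing notes, the authors trimmed adapters, aligned reads to mm10 with STAR, summarised them per gene with HTSeq and removed duplicates by barcode. Tool versions, annotation and strand setting were not given in the sources used here. A table of expected counts was deposited by the authors, unscaled and partly fractional, for 1175 genes. All of them had a higher mean count in exercise. How they were selected is not given, nor is how the steps above led to fractional values.

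Counts were scaled by column totals, rounded and fitted with edgeR 4.0.16 (quasi-likelihood test, two-sided, no covariates, R 4.3.3), with Benjamini-Hochberg adjustment over 1175 genes. The script was run on simulated data with less spread between replicates than here, equal in both groups. That run checked the code and not the test on these libraries. Each SE was computed as absolute log2 ratio / square root of F. Nothing states that libraries came from separate animals, so tests reflect the spread of these 4 samples, possibly technical. Intervals of pooled ratios are exact (Clopper-Pearson, 95%). The members, gene lists and alternatives were chosen with earlier results of these data known. Up to 4 listed genes with the highest mean count were named per role list, and the 3 nearest patterns per gene. Genes of the lists were matched by symbol. Alternatives were DESeq2 1.42.0, TMM, limma-voom 3.58.1, low-count filters, a replicate block, leaving out each library, whole-count genes, and totals without the 10 most abundant genes. Positions and exons are from GENCODE M21 and promoters from RefSeq, in which all 5 genes matched by symbol.
Figures and tables used Python 3.11.15, pandas 2.3.3, SciPy 1.17.1 and matplotlib 3.10.9. Protein sequences were not analysed here.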

Additional observations from a re-analysis of the deposited data

How the results depend on the processing

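The number of listed genes past the study's thresholds, 134 with all libraries, was 156 with the DESeq2 Wald test, 68 with limma-voom, 45 of 596 whole-count genes and 44 to 650 with each library left out. Of the 5 genes, 3 passed with all libraries, 1 with limma-voom (Adam17), 4 with the DESeq2 Wald test and 1 to 4 with each library left out (lowest without sedentary replicate 1, where Ceacam1 alone passed). The log2 share ratio with each library left out ran from 1.58 to 4.70 for Tlr8, -0.13 to 0.46 for Padi4, -0.55 to -0.17 for Pirb, 1.74 to 4.10 for Ceacam1 and 0.48 to 0.92 for Adam17. Such fits have a lone library on one side, whose spread is taken from the other side. Scaling, filters and the replicate block moved no ratio of the 5 genes by as much as the SD between replicates. With the replicate block the ratio of Ceacam1 was 2.95 and 3 genes passed. The replicate numbers were not seen to pair the libraries (correlation of deviations -0.07 across 1005 genes). Totals without the 10 most abundant genes were chosen after seeing the data. Unknown library totals, 12 sedentary counts of Tlr8 and shared sequence of Pirb and Ceacam1 limit these values.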
